A study of Mus musculus with 54 samples.

Results

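Parental Ba/F3-gp130 cells were exposed for 1 h to a GFP-PFC emulsion and set against unstimulated cells of the same line. The comparison shows what the emulsion was accompanied by in cells without a Cargo Internalization Receptor construct. The members are 6 of the 27 arrays of the study, namely the 3 parental arrays with GFP-PFC (numbered 2, 4 and 6) and the 3 parental unstimulated arrays (numbered 1, 3 and 5). They were chosen by their sample titles alone. The stated purpose of the arrays was to look at the overall influence of the receptor constructs.

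Ba/F3 cells are a cytokine-dependent line of mouse pro-B cells. Those named Ba/F3-gp130 grow on Hyper-IL-6, in which interleukin-6 is joined to its soluble receptor so that gp130 is engaged directly, and all lines were cultured with 10 ng/ml of it. Before stimulation all cells were washed 4 times and kept without serum for 3 h. The parental unstimulated group received neither stimulus, the parental GFP-PFC group received 50 µl of emulsion per ml for 1 h, and the parental Hyper-IL-6 group (3 arrays) received 100 ng/ml for 1 h. In 3 further lines (CIR-1, CIR-2, CIR-3), a construct of a Cargo Internalization Receptor (CIR) had been introduced, and these were measured unstimulated and with the same amount of GFP-PFC, with 3 arrays in each group. Per the labels, no arm received an emulsion-free liquid, an emulsion without GFP or GFP alone, and the composition of the emulsion, the species of the gp130 chain, the promoter of the constructs and whether a line is 1 clone are not given in the sources used here. The labels name no separate cultures behind the 3 arrays of a group. The p-values therefore measure the spread between arrays within groups, which may be technical. Unless another fit is named, this spread was pooled over all groups, the CIR and Hyper-IL-6 groups included. It is not the spread of the compared groups alone.

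A perfluorocarbon (PFC) emulsion consists of droplets of a fluorinated liquid in water and serves as a tracer for fluorine magnetic resonance imaging. Growth factors and cytokines act on cells through the kinase ERK, which quickly switches on immediate early genes (transcription factors such as Fos, Jun, Egr2 and Myc) and genes for its own dampers (the Dusp phosphatases, Sprouty and Spred proteins). The gp130 receptor chain signals mainly through the transcription factor STAT3, whose quick targets include the inhibitor Socs3 and the survival kinase Pim1. Both programs can be read from RNA collected soon after a stimulus.

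Values are log2 signals of 19920 genes and differences are log2 differences (GFP-PFC minus unstimulated) with their standard error (SE). Medians of the 6 arrays lay between 7.77 and 7.98, and correlations between them across genes lay between 0.9925 and 0.9982. The arrays' median lower quartile was 6.62, and a mean below it is not shown to lie above background. The number of arrays limits the precision. Of 14 pro-B markers measured, 3 lay above the array median (7.87) and 7 lay below the lower quartile, among them Ebf1, Rag1, Rag2, Dntt and Il7r, so the pro-B label rests on few expressed markers. Sums of linear signal over each of 6 marker lists of blood cells and fibroblasts overlapped between the 2 groups, for example 7616 to 8237 in unstimulated and 7513 to 8044 in GFP-PFC arrays for the pro-B markers.

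After GFP-PFC, the genes with the highest signal relative to unstimulated cells were mostly ERK feedback and immediate early genes, such as Dusp6 (2.37-fold), Plk3 (1.91-fold), Dusp5 (1.83-fold) and Phlda1 (1.73-fold). The lowest were Ccng2, Rnf145 and genes mostly of low signal, with Ccng2 at 1.42-fold and Rnf145 at 1.39-fold below unstimulated cells. All gene lists named here were drawn up with earlier results of these arrays known, so shares of their members are no independent evidence. No gene passed the test. In the limma fit over 27 arrays with a 3-level block of consecutive array numbers, 0 of 19920 genes (0%) had an adjusted p under 0.05. The smallest adjusted p was 0.0925, reached by Rnf145, Dusp5 and Plekho2. Before adjustment, 1131 genes (5.68%) had a p under 0.05, 417 of them higher (2.09%) and 714 lower (3.58%). The 3 GFP-PFC values all lay above the 3 unstimulated ones for 403 genes (2.02%) and all below for 697 (3.5%).

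Deviations from the group means correlated between arrays 1 and 2 (r = 0.61), 3 and 4 (r = 0.35) and 5 and 6 (r = 0.58) across 19920 genes, so consecutive numbers were treated as pairs. With a block for each pair within a line (24 arrays, without Hyper-IL-6), 7 genes passed (0.0351%), all of them higher. They were Plk3 (adjusted p = 0.00445 by limma), Nfkbid (adjusted p = 0.0189), Dusp5 and Plekho2 (adjusted p = 0.0245 each), and Cflar, Jam2 and Myc (adjusted p = 0.0333, 0.0333 and 0.0334). The counts depended on the arrays numbered 1 and 2. Without the arrays numbered 1 and 2 in every line, 299 genes passed, 120 higher and 179 lower. Among these were Dusp6 (adjusted p = 0.0464), Dusp5 (0.0344), Dusp4 (0.0408), Plk3 (0.0477) and Il6 (0.0486). A single array changed the count too, since 7 genes passed without parental array 1 and 0 without any other single parental array.

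**Figure D1:**
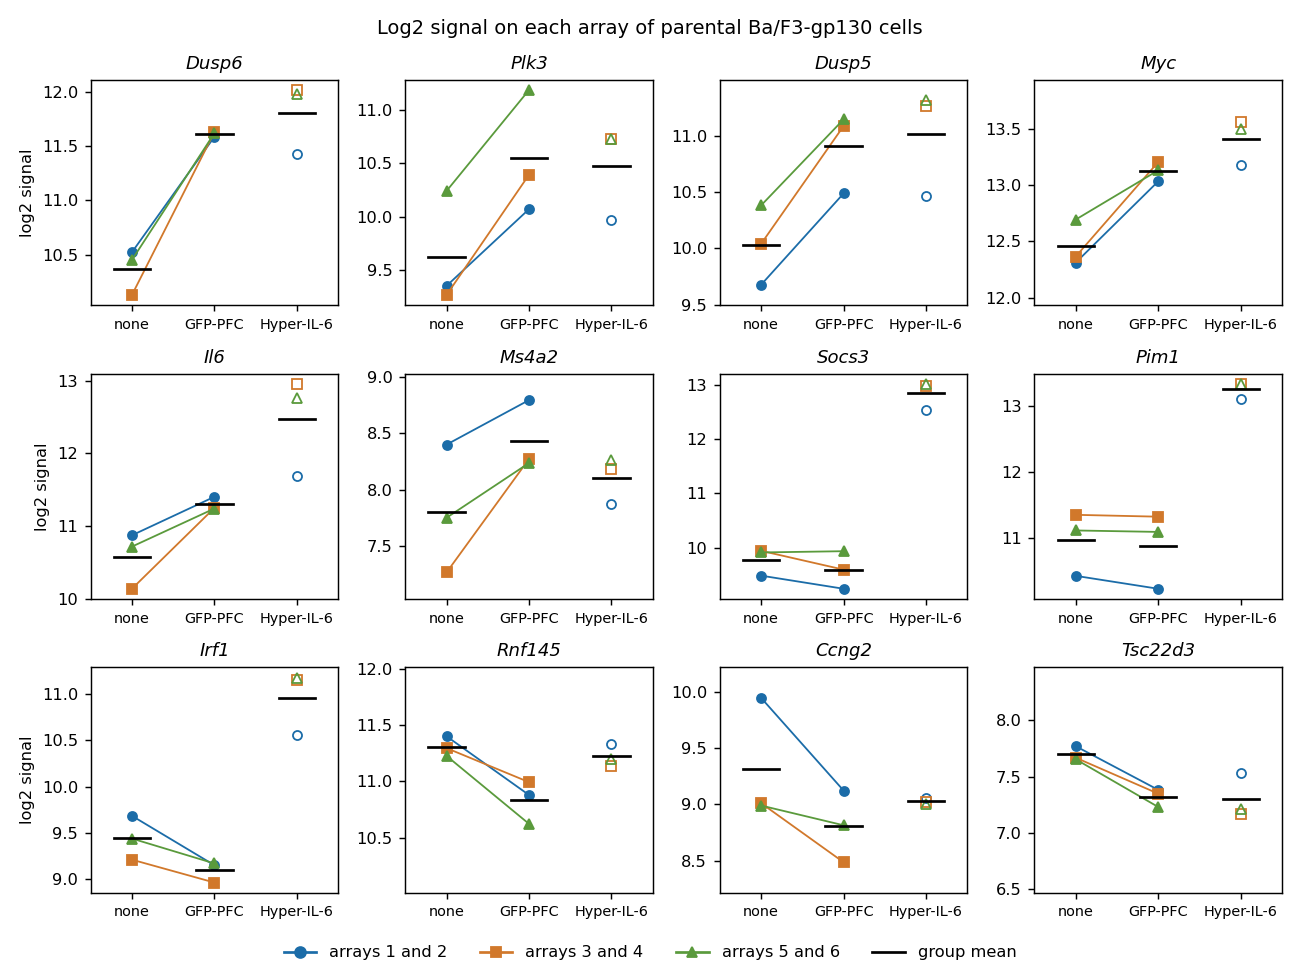
Log2 signal of 12 genes (vertical axes, each panel with its own range of at least 2 log2 units) on every parental array without stimulation, with GFP-PFC and with Hyper-IL-6, where lines join arrays of consecutive numbers and black bars are group means. The Dusp6, Dusp5, Myc and Il6 signals were higher in all 3 GFP-PFC arrays than in any unstimulated array, while Socs3 and Pim1 overlapped between these groups and were high only with Hyper-IL-6.

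The dampers of ERK signalling came first. Dusp6, a phosphatase that removes phosphate from ERK in the cytoplasm, read 10.52, 10.13 and 10.45 in unstimulated arrays 1, 3 and 5 and 11.59, 11.63 and 11.62 in GFP-PFC arrays 2, 4 and 6. All 3 GFP-PFC arrays were high and lay within 0.1 of each other. The difference was 1.25 (SE 0.32, 95% interval 0.58 to 1.91, adjusted p = 0.438 by limma). Dusp5, which acts on ERK in the nucleus, read 9.68, 10.04 and 10.38 without and 10.49, 11.09 and 11.14 with the emulsion. The groups did not overlap, although the lowest GFP-PFC array stood only slightly above the highest unstimulated one, and the difference was 0.87 (SE 0.15, adjusted p = 0.0925 by limma).

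Dusp4, a further nuclear phosphatase of this family, read 8.21, 8.39 and 8.51 without and 8.86, 9.20 and 9.33 with GFP-PFC, a difference of 0.76 (SE 0.18) without overlap. Dusp16, which acts mainly on the stress kinases JNK and p38, read 9.48, 9.39 and 9.42 against 9.81, 9.75 and 10.07, a difference of 0.44 (SE 0.12). Of all 17 feedback genes, 0 passed the adjusted test, 7 were higher and 1 lower at an unadjusted p under 0.05 (41.2% and 5.88%, beside 2.09% and 3.58% of all genes), and 11 were higher in all 3 pairs (64.7%, beside 11% of all genes). Their median difference was 0.15, against -0.01 for all genes. The list was drawn up with earlier results of these arrays known, so these shares are no independent evidence. The Sprouty and Spred dampers gave smaller values than Dusp6, with 0.21 (SE 0.15) for Spry2, 0.15 (SE 0.081) for Spry4, -0.02 (SE 0.083) for Spry1, 0.17 (SE 0.071) for Spred1 and 0.14 (SE 0.057) for Spred2. Dusp8 (-0.18) was the 1 feedback gene that was lower at an unadjusted p under 0.05, and 2 of the 17 were lower in all 3 pairs (11.8%, beside 15.4% of all genes).

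The windows before the start of the 3 feedback or immediate early genes with the highest differences (Dusp6, Plk3 and Dusp5) were searched in the RefSeq mouse sequence (GRCm38.p6), to show the sequence behind the leading values. Each window held the 250 bases before the annotated start. Both strands were searched for the cyclic AMP element TGACGTCA, the AP-1 motif TGANTCA, the ETS core CCGGAA and the CArG box of the serum response element. Of 32536 distinct windows of all genes, 1.56% held the first, 6.73% the AP-1 motif, 12.1% the ETS core and 1.48% a CArG box. The Dusp6 window (chr10:99262981-99263230, plus strand) and the Plk3 window (chr4:117133964-117134213, minus strand) held none of the 4, which says only that these letters are not there. The Dusp5 window (chr19:53528895-53529144, plus strand) held 2 CArG boxes side by side, starting 82 and 72 bases before the start and shown in capitals.
Dusp5: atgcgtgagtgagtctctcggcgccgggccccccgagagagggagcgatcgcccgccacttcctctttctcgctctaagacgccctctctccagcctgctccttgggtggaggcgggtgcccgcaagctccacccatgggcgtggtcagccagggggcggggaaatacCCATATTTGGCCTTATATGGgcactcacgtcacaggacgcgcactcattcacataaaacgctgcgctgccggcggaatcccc
A match is a description of the letters and not a sign that a factor was bound in these cells. Srf, the gene of the factor that recognises CArG boxes, read 10.03, 10.19 and 9.96 in unstimulated and 10.22, 10.35 and 10.07 in GFP-PFC arrays. The Srf groups overlapped, each GFP-PFC array was above its pair partner, and the difference was 0.15 (SE 0.050).

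Among immediate early genes, Plk3, a stress-responsive kinase of the polo family, read 9.35, 9.27 and 10.24 in the unstimulated and 10.07, 10.39 and 11.19 in the GFP-PFC arrays. Arrays 5 and 6 were both high for Plk3, so the groups overlapped, while the pair differences were 0.72, 1.13 and 0.95. Its difference of 0.93 (SE 0.23) had an adjusted p of 0.427 with the 3-level block and of 0.00445 with a block per pair (limma). Myc, a transcription factor of cell growth, read 12.31, 12.37 and 12.69 against 13.03, 13.20 and 13.13, without overlap and with a difference of 0.67 (SE 0.14, adjusted p = 0.306 by limma).

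Among the AP-1 members, which were not tested against each other, Fosl1 read 8.90, 9.21 and 9.49 without and 9.71, 10.20 and 10.01 with GFP-PFC, a difference of 0.77 (SE 0.18). Jun read 9.48, 9.38 and 9.90 against 9.96, 10.32 and 10.54, a difference of 0.69 (SE 0.21). Both were separated between the groups. Fos itself overlapped, with 8.64, 8.88 and 8.44 against 8.72, 8.85 and 8.63, and its difference was 0.08 (SE 0.31, 95% interval -0.57 to 0.73). Fosb was higher without overlap (0.77, SE 0.40), with an interval of -0.07 to 1.61.

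Egr2, a zinc finger transcription factor, read 8.24, 8.22 and 8.61 without and 8.85, 9.12 and 9.35 with GFP-PFC, a difference of 0.75 (SE 0.32). Egr3, of the same family, had a value below 0 (-0.13, SE 0.089). Phlda1 (0.79, SE 0.28), Zfp36, which promotes decay of cytokine messages (0.64, SE 0.25), and Ier2 (0.38, SE 0.096) were each higher without overlap. Of the 40 immediate early genes, 0 passed the adjusted test. At an unadjusted p under 0.05, 11 were higher and 1 (Gadd45a, -0.30) lower (27.5% and 2.5%, beside 2.09% and 3.58% of all genes). The groups were separated with GFP-PFC higher for 11 of the 40 (27.5%, beside 2.02% of all genes), and the median difference was 0.09. This list too was drawn up with earlier results known, so its shares are no independent evidence.

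Among cytokines, Il6, the ligand of gp130's own receptor complex, read 10.87, 10.14 and 10.72 in unstimulated and 11.40, 11.25 and 11.24 in GFP-PFC arrays. The unstimulated array 3 was low, the groups did not overlap, and the difference was 0.72 (SE 0.24, adjusted p = 0.771 by limma). Ccl3, a chemokine that attracts monocytes, read 7.82, 7.66 and 7.98 against 8.15, 8.48 and 9.42. Its GFP-PFC arrays were unequal, with pair differences of 0.33, 0.83 and 1.44, and the difference was 0.87 (SE 0.37). Of 27 NF-kB and inflammatory genes, 4 were higher and 0 lower at an unadjusted p under 0.05 (Ccl3, Il6, Tnf at 0.53 and Nfkbid), which is 14.8% and 0% beside 2.09% and 3.58% of all genes, and the list's median was 0.05. Nfkbid, a nuclear regulator of NF-kB, read 9.05, 9.18 and 9.31 against 9.45, 9.61 and 9.68, with even pair differences of 0.40, 0.43 and 0.36.

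Further genes that passed with a block per pair were Cflar, an inhibitor of death receptor signalling, Plekho2 and the junction protein Jam2. Cflar read 9.08, 8.67 and 8.58 without and 9.34, 9.25 and 9.25 with GFP-PFC, a difference of 0.50 (SE 0.11), and its 3 probe sets gave 0.50, 0.59 and 0.61. Plekho2 read 8.83, 9.17 and 9.19 against 9.20, 9.72 and 9.79, where the lowest GFP-PFC array only just cleared the highest unstimulated one. Its difference was 0.51 (SE 0.091), and a second probe set gave 0.27. Jam2 was higher by 0.37 (SE 0.12). Gm14636, a gene model, was in the highest 12 by rule with 0.95 (SE 0.30), starting from a mean of 6.38 that lies below the lower quartile, so its fold is a ratio of signals.

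The rule for named genes took the 12 highest and 12 lowest differences among genes with an unadjusted p under 0.05, the same sign in 3 of 3 pairs, no overlap and a higher mean above the arrays' lower quartile. In this order the 12 on the high side ended with Zfp36 (0.64), and Mycn (0.57) was the next outside. On the low side they ended with Cela3b (-0.30), with Ehhadh (-0.30) next. Of the 12 higher genes, 9 were in the ERK feedback or immediate early list. Both lists were drawn up with earlier results of these arrays known, so this count is no independent evidence. Exon-level values come from the same hybridisations, and the genes were chosen for their sign on these arrays, so the following counts describe how evenly the signal lay along a gene and are no independent check. Of the exon-level probe sets, 47 of 49 in the 12 higher genes were higher and 80 of 87 of the 12 lower genes were lower. All 4 probe sets of Dusp6, all 5 of Dusp5, all 6 of Dusp4 and all 6 of Il6 were higher in each of the 3 pairs.

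**Figure D2:**
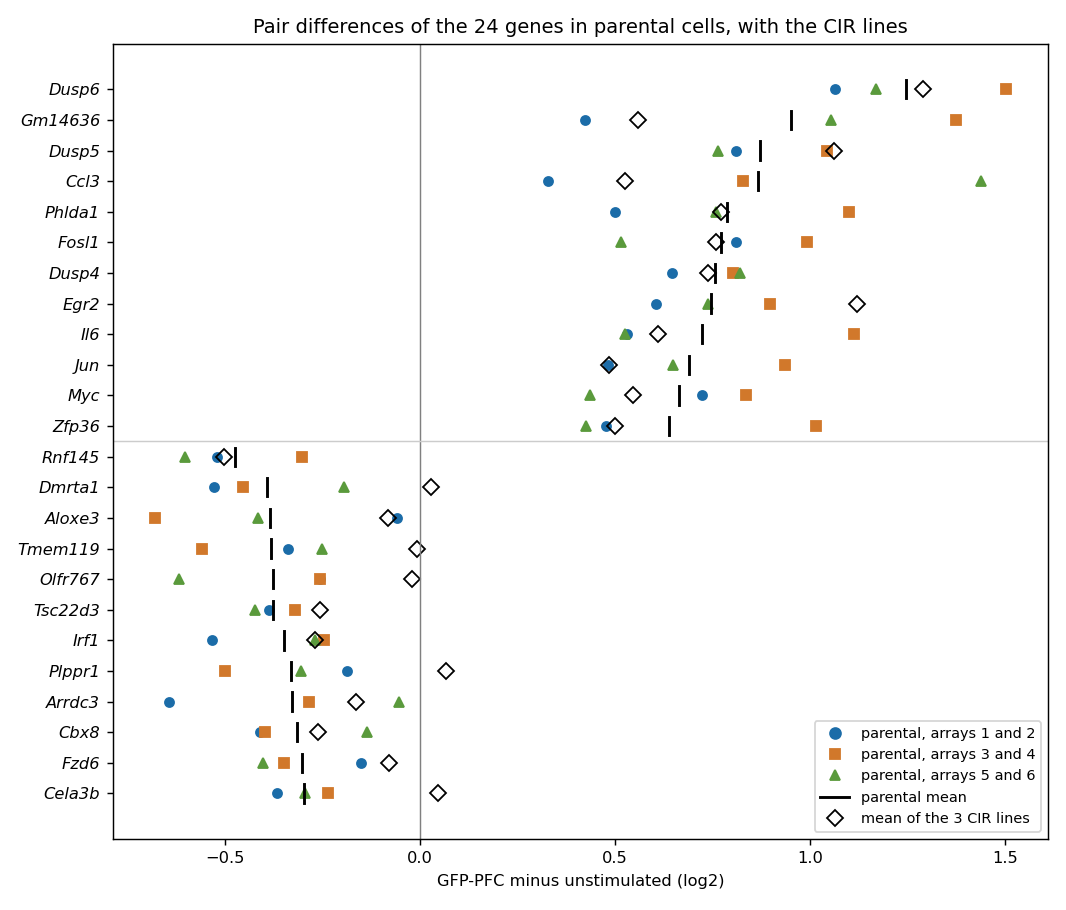
GFP-PFC minus unstimulated (log2, horizontal axis) for the 12 highest and 12 lowest genes, with 1 filled symbol per parental pair of consecutive arrays, the parental mean as a black bar and the mean of the 3 CIR lines as an open diamond. The diamonds lie near the parental mean for most of the upper 12 genes and for Rnf145, and near 0 for Dmrta1, Tmem119, Olfr767, Plppr1 and Cela3b.

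On the low side, Rnf145, a ubiquitin ligase of the endoplasmic reticulum linked to control of cholesterol synthesis, read 11.40, 11.30 and 11.23 in unstimulated and 10.88, 10.99 and 10.62 in GFP-PFC arrays. The groups did not overlap, and the difference was -0.48 (SE 0.083, adjusted p = 0.0925 by limma, 0.144 with a block per pair). All 13 of its exon-level probe sets were lower. The 20 cholesterol genes measured had a median of 0.01, with 1 lower (Rnf145) and 1 higher (Hsd17b7, 0.11) at an unadjusted p under 0.05. That is 5% each, beside 3.58% and 2.09% of all genes, so these counts lie near the background.

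Tsc22d3, a glucocorticoid- and FOXO-responsive gene, read 7.77, 7.67 and 7.66 without and 7.38, 7.35 and 7.23 with GFP-PFC. Every pair was lower by a similar amount, and the difference was -0.38 (SE 0.095, adjusted p = 0.435 by limma). At exon level 6 of its 7 probe sets were lower. With the gene taken as the median of these probe sets on each array, the fitted difference was only -0.04 (adjusted p = 0.992 by limma). Ccng2, a cyclin of non-dividing cells, read 9.95, 9.01 and 8.99 against 9.12, 8.49 and 8.82. Array 1 stood high and the groups overlapped, but each GFP-PFC array was below its partner, and the difference was -0.51 (SE 0.13). Of 23 FOXO and quiescence genes, 4 were lower (Ccng2, Tsc22d3, Cdkn1b at -0.18 and Ypel3 at -0.17) and 1 higher (Yod1, 0.24) at an unadjusted p under 0.05 (17.4% and 4.35%, beside 3.58% and 2.09% of all genes), and the median was -0.07.

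Irf1, a transcription factor of interferon responses and a STAT target, read 9.68, 9.21 and 9.44 without and 9.15, 8.96 and 9.17 with GFP-PFC. It was lower in each pair without overlap (-0.35, SE 0.12), and a second probe set gave -0.16. Arrdc3 (-0.33, SE 0.14) and Cbx8, a subunit of Polycomb complexes (-0.31, SE 0.092), were also among the 12. The remaining 7, namely Dmrta1, Aloxe3, Tmem119, Olfr767, Plppr1, Fzd6 and Cela3b, had differences of -0.39 to -0.30 at low to middle signal. Their unstimulated means were 6.64 to 8.27, so the highest lay above the array median of 7.87. The lowest passed the cut of 6.62 only through its unstimulated arrays, so its fold is a ratio of signals.

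Low signal and direction went together over all genes. Of the genes that met the rule, 131 were higher, with a median level of 10.06, and 176 were lower, with a median level of 7.18. The array median was exceeded by 120 of the 131 but by only 39 of the 176. In 16 of the higher genes the difference was at least 0.5, and in 0 of the lower ones was it -0.5 or less. Between the lower quartile and the median, the median difference of 5008 genes was -0.06, and it was 0.06 in the pair of arrays 1 and 2 but -0.13 and -0.09 in the other two pairs. Above the upper quartile (4980 genes), the median was 0.02, with -0.03 in arrays 1 and 2 and 0.05 and 0.03 in the others. Across genes, the differences of pairs 3-4 and 5-6 correlated at 0.50, and those of pair 1-2 correlated with them at -0.16 and -0.17. Centring each array on its median moved the median of all genes from -0.01 to 0.03 and turned the split at an unadjusted p under 0.05 from 417 higher and 714 lower to 545 higher and 383 lower. Quantile normalization gave 617 and 559. The part of scaling in the lower values was not tested.

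**Figure D3:**
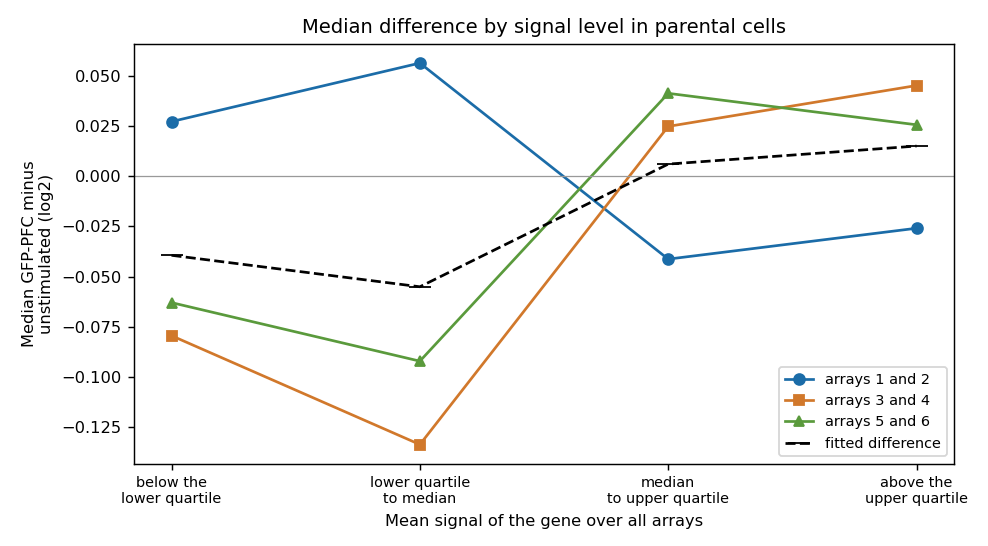
Median GFP-PFC minus unstimulated difference (log2, vertical axis) of genes in 4 bins of mean signal (horizontal axis) for each parental pair and for the fitted difference (dashed). In every bin the pair of arrays 1 and 2 has the opposite sign to the other two pairs.

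The gp130 program was set beside this with the parental Hyper-IL-6 arrays, which share the 3 unstimulated arrays with the GFP-PFC comparison. Socs3, the main feedback inhibitor of gp130, read 9.49, 9.95 and 9.92 in unstimulated and 9.25, 9.60 and 9.94 in GFP-PFC arrays. The groups overlapped and the difference was -0.19 (SE 0.15, 95% interval -0.50 to 0.12), while Hyper-IL-6 raised Socs3 by 3.06 (adjusted p = 1.0e-11 by limma). Pim1 was also unseparated at -0.08 (SE 0.21, 95% interval -0.52 to 0.35) after GFP-PFC, and rose by 2.28 after Hyper-IL-6. Socs1 (0.02, SE 0.11) and Cish (0.16, SE 0.19) had intervals that span 0, and they rose by 0.75 and 2.07 after Hyper-IL-6. Signs of values this small were not stable, since Socs1 turned negative under quantile normalization (-0.01).

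The cytokine genes Osm and Lif read higher after GFP-PFC without overlap, by 0.43 (SE 0.20) and 0.44 (SE 0.27), and rose by 3.77 and 3.73 after Hyper-IL-6. Irf1, lower in value after GFP-PFC, rose by 1.52 after Hyper-IL-6. Of 24 gp130 and STAT3 targets, 4 were higher (Il6, Zfp36, Osm and Vegfa) and 1 lower (Irf1) at an unadjusted p under 0.05 after GFP-PFC (16.7% and 4.17%, beside 2.09% and 3.58% of all genes). The groups were separated with GFP-PFC higher for 7 of the 24 (29.2%, beside 2.02% of all genes) and lower for 1 (4.17%, beside 3.5%). After Hyper-IL-6, 19 of the 24 rose in the adjusted test, beside 291 of all 19920 genes. The list medians were 0.08 and 1.07. In the direct comparison of the 2 stimuli, 211 genes were lower (1.06%) and 40 higher (0.201%) after GFP-PFC than after Hyper-IL-6, and 19 of the 24 targets were among the lower ones. Of 12 STAT5 targets, 2 were higher and 0 lower than in unstimulated cells at an unadjusted p under 0.05 after GFP-PFC. These shares were 16.7% and 0%, beside 2.09% and 3.58% of all genes. Separation with GFP-PFC higher was seen for 4 of the 12 (33.3%, beside 2.02%). The STAT5 list medians were 0.10 after GFP-PFC and 1.34 after Hyper-IL-6. Il6st, the mouse gene for gp130, had means of 6.33 and 6.42, below the lower quartile.

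In this direct test 1.06% of all genes were lower after GFP-PFC than after Hyper-IL-6. Of the 17 ERK feedback genes 3 were lower, as were 14 of the 40 immediate early genes. Among those with high differences against unstimulated cells, Dusp6 stood at 11.61 after GFP-PFC and 11.81 after Hyper-IL-6, a difference of -0.20 (SE 0.32). Dusp5 differed by -0.11 (SE 0.15), Dusp4 by -0.02 (SE 0.18), Plk3 by 0.07 (SE 0.23), Jun by -0.05 (SE 0.21) and Nfkbid by -0.07 (SE 0.091), none of them past the adjusted threshold, which does not show that the 2 stimuli acted alike. Fos (-1.69, SE 0.31, adjusted p = 0.00391 by limma), Egr2 (-1.43, SE 0.32, adjusted p = 0.0254), Zfp36 (-2.33, SE 0.25, adjusted p = 4.3e-06) and Il6 (-1.17, SE 0.24, adjusted p = 0.0109) were lower after GFP-PFC. Rnf145 was also lower after GFP-PFC than after Hyper-IL-6 (-0.39, SE 0.083, adjusted p = 0.0135), and Hyper-IL-6 itself left it at -0.08 (SE 0.083) against unstimulated cells.

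Cells with a construct gave a comparison with no shared arrays, although their arrays carry the same numbers. Over the 3 CIR lines (9 pairs), 69 genes rose (0.346%) and 9 fell (0.0452%) after GFP-PFC in the limma fit (adjusted p under 0.05). Of the 69, 66 were higher in all 3 parental pairs, beside 11% of all genes, and 40 were higher without overlap, beside 2.02%. Their median parental difference was 0.26. The exceptions were Lrrc66 (2 of 3 pairs higher), Olfr1213 and Gm4907 (lower in all 3). Of the 9 genes that fell, 7 were lower in all 3 parental pairs, beside 15.4% of all genes, with Cdkn1b and Mylip lower in 2 of 3. Their median parental difference was -0.29. Across 19920 genes, the parental and the mean CIR difference correlated at 0.47, and the parental difference correlated with CIR-1, CIR-2 and CIR-3 at 0.39, 0.37 and 0.29. The points share array numbers and probe sets, and genes are not independent replicates.

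**Figure D4:**
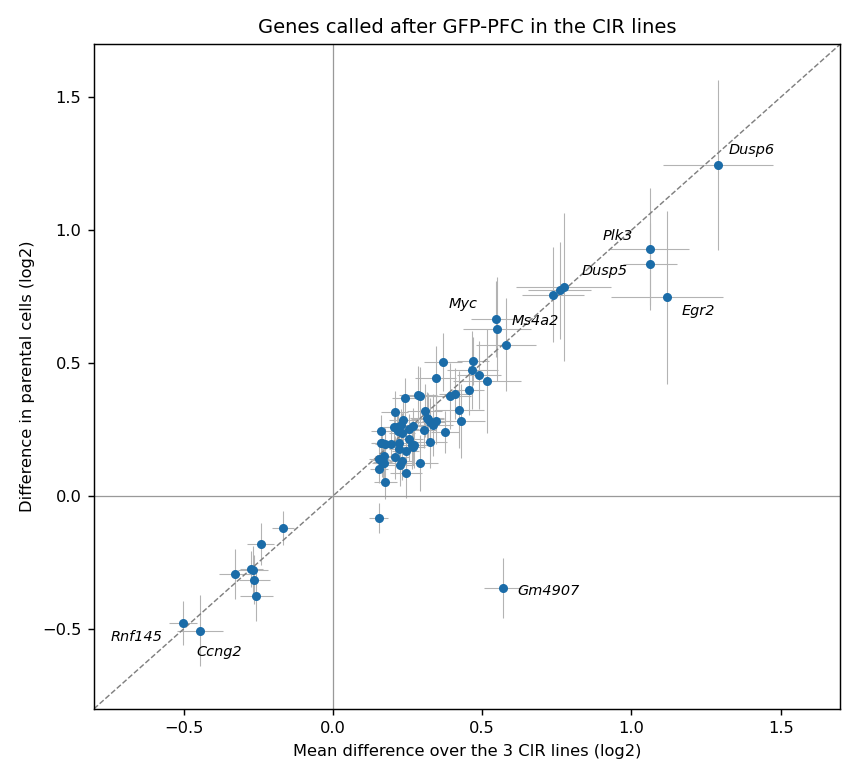
Parental difference (vertical axis, log2) against the mean difference of the 3 CIR lines (horizontal axis, log2) for the 78 genes called after GFP-PFC in the CIR lines, with standard errors as bars and equality as a dashed line. Of the 69 genes that rose in the CIR lines, 66 were higher in all 3 parental pairs, and Gm4907 stands apart with -0.35 in parental cells.

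Single genes were compared between parental and CIR cells in the same fit. Dusp6 rose by 1.29 (SE 0.18, adjusted p = 0.000848 by limma) in the CIR lines, with 1.24, 0.94 and 1.69 in CIR-1, CIR-2 and CIR-3, and the parental difference minus the CIR mean was -0.04 with a 95% interval of -0.81 to 0.72. The same quantity was -0.19 (-0.56 to 0.18) for Dusp5, 0.02 (-0.41 to 0.45) for Dusp4, -0.13 (-0.68 to 0.42) for Plk3, 0.12 (-0.22 to 0.46) for Myc and 0.03 (-0.17 to 0.23) for Rnf145. Of these 6 intervals, that of Dusp6 was the widest and that of Rnf145 the narrowest. Of the 12 higher genes, 11 were higher in all 9 CIR pairs, beside 69 of the 131 higher genes that met the rule. The share over all genes was not counted. In the CIR test 7 of the 12 rose, beside 0.346% of all genes. For the difference between parental and CIR cells, 0 of the 12 had an unadjusted limma p under 0.05, beside 2.13% of all genes. The smallest p was 0.269, for Gm14636. The 12 were chosen for high parental values, which this difference uses again. A count of 0 also lies near the background, so nothing is read from it.

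On the low side, Rnf145, Tsc22d3 and Irf1 were lower in all 9 CIR pairs, beside 12 of the 176 lower genes that met the rule. Here too the share over all genes was not counted. In the CIR test 3 of the 12 lower genes fell (Rnf145, Tsc22d3 and Cbx8), beside 0.0452% of all genes. In 5 of the 12 (Dmrta1, Aloxe3, Tmem119, Plppr1 and Cela3b, all of low to middle signal) the parental difference was below the CIR mean at an unadjusted p under 0.05. The 12 were chosen for low parental values, which this difference uses again, so nothing is read from that count. Over all genes, 424 (2.13%) had such a p in either direction, and 1 differed between parental and CIR cells after adjustment (0.00502%), Gm4907, with -0.35 in parental cells and 0.57 in the CIR lines. Its parental means were 6.35 and 6.01, below the lower quartile, and its 2 exon-level probe sets differed in sign.

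Programs of droplet uptake, lipid handling and stress were described by lists. Of 30 genes of clathrin and other endocytosis, 26 lysosome genes and 24 scavenger and phagocytic receptors, 0 had an unadjusted p under 0.05 in either direction, and their medians were 0.02, -0.01 and -0.03. Over all genes 5.68% had such a p, so in lists of this size a count of 0 lies near the background and is no result about these programs. The endocytosis genes ranged from -0.13 to 0.10. The 19 oxidative stress, 11 heat shock and 21 unfolded protein genes also had 0 members at that p, with medians of 0.05, 0.04 and 0.01, although 11 of 19 (57.9%) and 7 of 11 (63.6%) of the first 2 lists were higher in all 3 pairs, beside 11% of all genes. The groups were separated with GFP-PFC higher for 4 of the 11 heat shock genes (36.4%, beside 2.02% of all genes) and for 0 of the 19 oxidative stress genes, and the highest difference among the heat shock genes was 0.09. The 22 ribosome biogenesis and 19 G2/M genes had 0 as well. Of 22 G1/S genes 2 were higher (Cdc25a at 0.17 and Rrm2 at 0.13), which is 9.09%, beside 2.09% of all genes. Of 21 interferon-stimulated genes, 2 were lower (Rsad2 at -0.18 and Oasl2 at -0.14; 9.52%, beside 3.58% of all genes), and the median was 0.00.

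Of 23 lipid droplet and fatty acid genes, 2 were higher and 2 lower at that p (8.7% each, beside 2.09% and 3.58% of all genes). Plin2, the coat protein of lipid droplets, read 10.50, 10.15 and 10.33 in unstimulated and 10.78, 10.49 and 10.54 in GFP-PFC arrays. The groups overlapped, each pair was higher, and the difference was 0.28 (SE 0.087, unadjusted p = 0.00416 by limma), beside a rise of 0.32 in the CIR lines and 0.02 (SE 0.087) after Hyper-IL-6. Hilpda, a lipase inhibitor on droplets, was higher by 0.17 (SE 0.080). Mylip, which targets the LDL receptor for degradation, was lower in fitted value (-0.28, SE 0.089), but in only 2 of 3 pairs and with overlap. Abcg1, a cholesterol exporter, was lower too (-0.16, SE 0.070). Both are targets of the sterol receptor LXR, whose targets were not examined as a set. Of 24 hypoxia genes 3 were higher, namely Ddit4, an mTOR inhibitor (0.38, SE 0.17), Vegfa (0.24, SE 0.082) and Hk2 (0.19, SE 0.088). That is 12.5%, beside 2.09% of all genes, while the median of the list was -0.02 and 6 of the 24 were lower in all 3 pairs (25%, beside 15.4%).

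**Figure D5:**
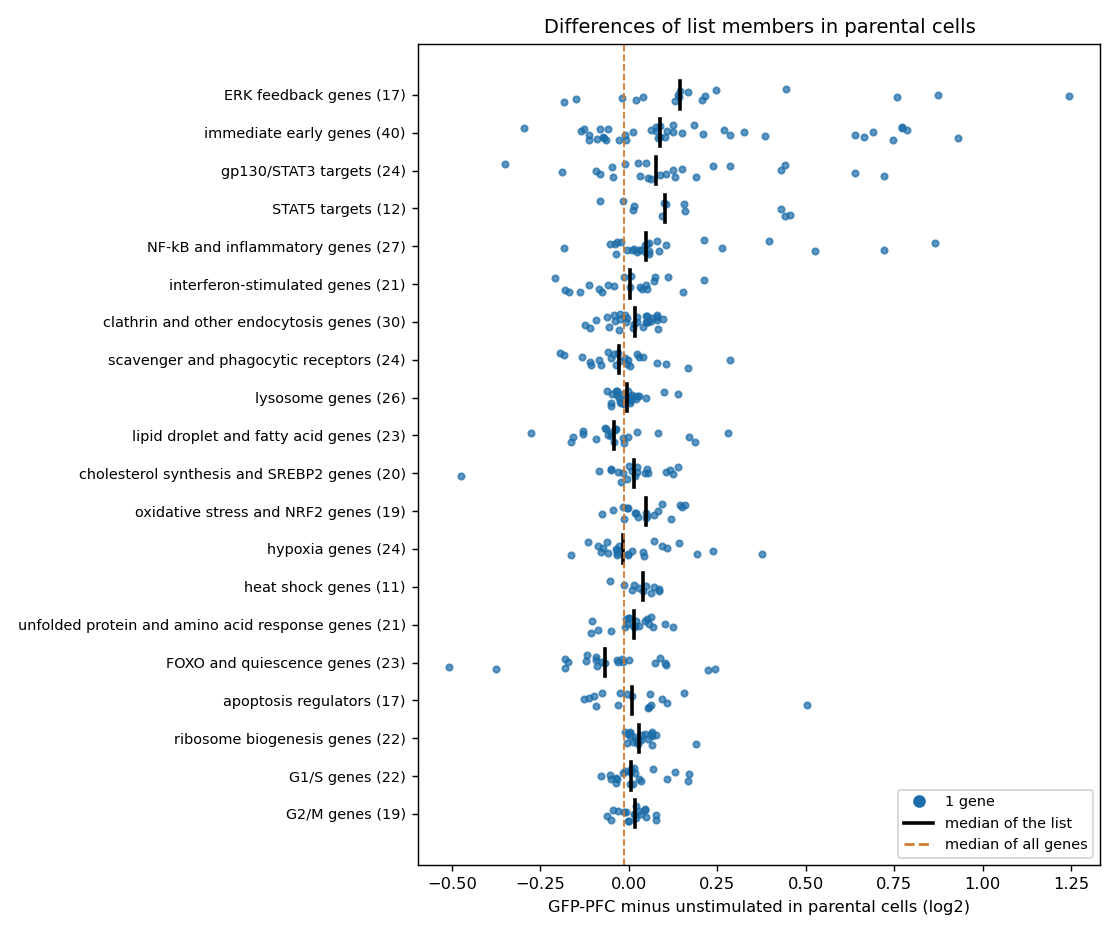
GFP-PFC minus unstimulated difference (log2, horizontal axis) of each measured member of 20 gene lists in parental cells, with 1 point per gene, the list median as a black bar and the median of all genes as a dashed line; numbers in brackets are measured members. The points of the endocytosis list lie between -0.13 and 0.10, while the ERK feedback list reaches 1.25.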

How the data were processed

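RNA from mouse Ba/F3-gp130 cells was hybridised to 27 Affymetrix arrays. The authors deposited gene-level and exon-level values made with Affymetrix Expression Console, per the labels; its version, its normalization and its log base are not given in the sources used here. The deposited values were taken as log2 because they ranged from 2.97 to 14.9. Of 35556 gene-level probe sets, 21789 had 1 symbol, 1621 several and 12146 none. The probe set with the highest mean was used for each of 19920 genes, without a filter on dim signals and with 23 older symbols replaced by current ones. At exon level there were 241576 probe sets.

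In R 4.3.3 with limma 3.58.1 (and data.table, version 1.17.8), a mean for each of 9 groups and a 3-level block for consecutive numbers were fitted to all arrays, with two-sided moderated tests and Benjamini-Hochberg adjustment over all genes at a threshold of 0.05. The block takes array numbers as pairs, which the labels do not state. The correlation of paired deviations given above compared no other combinations of arrays and does not settle the pairing. The procedure was tested on simulated data. Noise was drawn independently for each array, and recovery was required only at differences larger than any parental one. The simulation therefore does not show how often differences of the size seen here would be found. With 3 arrays against 3, an exact two-sided permutation test of a single gene that ignores the pairs cannot reach a p below 0.1. For such a test that keeps the pairs the limit is higher.

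The named genes were the 12 highest and 12 lowest by the rule given above, up to 4 members of each of 27 lists with the smallest p, and fixed gp130 genes (Socs3, Il6st, the Socs and Pim genes, Osm, Lif, Il6) with Dusp6, Egr2 and Rnf145. Genes that passed in an alternative fit, and Ms4a2, Ccng2 and other list members, are named as well. The members and lists were chosen with earlier results of these data known. The 15 other settings tried covered the block, array weights, scaling, exon-level values and left-out arrays, and 1 more was chosen after seeing the data.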

Additional observations from a re-analysis of the deposited data

Results flagged for a closer look

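Gm4907, a gene model of low signal, was the 1 gene whose GFP-PFC difference in parental cells differed from that in the CIR lines after adjustment (-0.92, adjusted over all genes by limma). It was lower in all 3 parental pairs and higher in all pairs of CIR-1 (0.63), CIR-2 (0.46) and CIR-3 (0.62); these single-line contrasts with parental cells were not tested. The adjusted call was lost in the exon-level values, without parental unstimulated array 5, and without the arrays numbered 1 and 2 in both fits.

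In 2 further genes, all 3 parental pairs and all 3 pairs of 1 CIR line lay on opposite sides of 0, and the difference was not tested for that line. They were Dmrta1 in CIR-3 (0.17) and Plppr1 in CIR-2 (0.091), both of low to middle signal in parental cells, where the differences were -0.39 and -0.33.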

How the results depend on the processing

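For GFP-PFC against no stimulation in parental cells, 0 genes passed (366 to 1240 at an unadjusted p under 0.05) without a block, with 6 parental arrays alone, without dim genes, with other uses of probe sets, under quantile normalization and under median centring. The count was 1 with the block but without the Hyper-IL-6 arrays (Cflar), 1 in the exon-level values (Filip1), 1 with a variance trend and robust fit (Rnf145), 7 with the block per line and pair, 127 under array weighting (78 higher, 49 lower), 299 if arrays 1 and 2 of each line were dropped, and 522 (272 higher, 250 lower) when those arrays were left out of the pair-block fit, an alternative chosen after seeing the data. Leaving out 1 parental array gave 0 to 7 genes. For parental minus CIR, 1 gene became 0 in the exon-level values, without arrays 1 and 2 in either fit, and 0 to 1 when 1 parental array was left out. The CIR mean count of 78 became 16 without a block, 118 without Hyper-IL-6 arrays, 182 with the pair block, 246 with weights, 35 at exon level and 127 with the pair block without arrays 1 and 2. GFP-PFC against Hyper-IL-6 (251 genes) gave 101 without a block, 2952 with weights, 160 with median centring, 154 at exon level and 144 to 275 without 1 parental array. The cause of these moves was not tested.

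Among 40 named genes only gp130-program genes with small values changed sign. Socs1 (0.025) became -0.067 with weights, -0.0080 with quantile normalization and -0.18 without arrays 1 and 2 in both fits, and ranged from -0.15 to 0.18 when 1 parental array was left out. Pim3 (0.032) became -0.065 with weights, -0.012 with quantile normalization, -0.079 at exon level and -0.067 without arrays 1 and 2 in both fits, and ranged from -0.13 to 0.12. At exon level Socs2 became -0.067 and Il6st -0.0087. Pim1 (-0.08) ranged from -0.23 to 0.035 when 1 parental array was left out. Sizes also moved without a change of sign. In the exon-level fit Tsc22d3 shrank to -0.040, Phlda1 to 0.27 and Plekho2 to 0.24, while Jam2 grew to 0.76 and Dusp5 to 0.99.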

Other observations

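Ms4a2, the beta chain of the high-affinity IgE receptor of mast cells and basophils, was outside the leading lists but had one of the highest parental differences. It read 8.40, 7.27 and 7.75 in unstimulated and 8.79, 8.27 and 8.24 in GFP-PFC arrays. Array 1 was high among the unstimulated arrays, so the groups overlapped, while each pair was higher and the difference was 0.63 (SE 0.20, adjusted p = 0.708 by limma). It rose by 0.55 in the CIR lines (adjusted p = 0.0251) and was at 0.30 (adjusted p = 0.678) after Hyper-IL-6. None of the other 10 mast cell and basophil markers had an unadjusted p under 0.05, and 4 of the 11, Cpa3, Mcpt8, Mcpt4 and Cma1, lay below the lower quartile of the arrays.

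Genes of transcription and translation machinery with small, even differences were among those that rose in the CIR lines. Taf1a, a subunit of the RNA polymerase I initiation factor, was higher by 0.26 (SE 0.067) in parental cells and by 0.27 in the CIR lines. Eef1e1, part of the aminoacyl-tRNA synthetase complex, was higher by 0.26 (SE 0.062) and 0.22, and Polr3d, a subunit of RNA polymerase III, by 0.20 (SE 0.065) and 0.22. These 3 were picked after their values were seen.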
